A study of Mus musculus with 4 samples.

Results

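The miR-30 family was read here through its 5 guide strands, mmu-miR-30a, mmu-miR-30b, mmu-miR-30c, mmu-miR-30d and mmu-miR-30e, taken by exact array name out of 611 mouse miRNAs on the array. The miRNAs came from neural stem and progenitor cells made from mouse embryonic stem cells and grown as neurospheres, which are free-floating balls of dividing neural cells. The 4 groups compared had 1 array each: secondary neurospheres (passage 1, day 12 after the embryoid body stage) titled NFIA OE, secondary neurospheres titled control, primary neurospheres (passage 0, day 6) titled NFIA OE, and primary neurospheres titled control. NFIA OE means that the cells overexpress NFIA, a transcription factor known for driving gliogenesis. In each passage the cells with and without NFIA overexpression shared mixed spheres and were then sorted apart by fluorescence, so that the control cells had also grown beside overexpressing cells. The labels do not give the promoter of the NFIA transgene or the number of clones.

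The labels disagree on NFIA status. In each passage the source name calls the array titled control the overexpressing line, and the array titled NFIA OE wild type. Groups below follow the titles, every title difference would change its sign under the source names, and no miRNA on the array can settle the matter. Passage is not affected by this.

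A miRNA guides a silencing complex to messenger RNAs, mainly by pairing of its seed, bases 2 to 8 from the 5′ end. The stem-loop precursor yields a guide strand, which is loaded into the complex, and a passenger strand (marked with a star in the array's naming), which is mostly degraded. The miR-30 guide strands share their seed and hence many predicted targets. In human cells the family is known to repress SNAI1, a driver of the epithelial-mesenchymal transition, and BECN1, an autophagy gene, and in fish and human endothelium the Notch ligand DLL4.

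The RefSeq table held mature sequences for 3 of the 5 members. They are shown to make the shared seed and the small differences outside it visible, with the seed in capitals, together with miR-384-5p, the other miRNA on the array with this seed.
miR-30a: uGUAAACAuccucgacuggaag
miR-30e: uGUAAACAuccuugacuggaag
miR-30c: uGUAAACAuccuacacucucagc
miR-384-5p: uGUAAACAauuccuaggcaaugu
Counted from 1 at the 5′ end, miR-30a and miR-30e differed by the single substitution C13U over 22 bases, whereas miR-30a and miR-30c were identical at 17 of 22 bases. Between miR-30a and miR-384-5p, 12 of 22 bases were the same. The probe sequences were not used here, so how far a probe for miR-30a also reads miR-30e was not tested.

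On GRCm38.p6 the mature miR-30a lies at chr1:23272274-23272295 (plus strand) and miR-30e at chr4:120772660-120772681 (minus strand). miR-30c has 2 genes with the same mature sequence, Mir30c-2 at chr1:23291714-23291736 (plus strand) and Mir30c-1 at chr4:120769584-120769606 (minus strand), which an array of mature miRNAs cannot tell apart. Mir384 is on the X chromosome. The genes of the members thus lie at 3 places: Mir30a with Mir30c-2 on chromosome 1, 19361 bp apart, Mir30c-1 with Mir30e on chromosome 4, 2983 bp apart, and Mir30b with Mir30d on chromosome 15, 3697 bp apart. Another miRNA gene, Mir30f, is listed within 50000 bp of the chromosome 4 pair. That pair lies inside Nfyc, which encodes a subunit of the CCAAT-binding factor NF-Y, unrelated to NFIA. The precursors of miR-30a and miR-30e are shown because both of their strands were measured, with the guide strand (first) and the passenger strand (second) in capitals.
Mir30a: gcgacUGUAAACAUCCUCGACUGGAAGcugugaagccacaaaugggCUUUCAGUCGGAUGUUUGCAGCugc
Mir30e: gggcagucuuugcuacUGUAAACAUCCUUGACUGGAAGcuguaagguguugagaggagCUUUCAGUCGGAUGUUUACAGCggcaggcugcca

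The arrays detected 186 to 220 mouse miRNAs each, and 153 on all 4. All 4 arrays were on 1 slide, where position, title and passage cannot be told apart. Of the marker miRNAs, those of muscle and blood were detected on none (0) of the arrays, and neural progenitor miR-9 and miR-9* and neuronal miR-124 on all 4. Of 15 miRNAs of pluripotent cells, 5 and 1 were detected on the secondary arrays titled NFIA OE and control, against 7 and 6 on the primary arrays in the same order. The summed total gene signal of these 15 was 154.3 and 82.9 in secondary neurospheres, against 1139.2 and 837.7 in primary neurospheres. miR-9 and miR-9* summed to 3020.7 and 5604.8 in secondary neurospheres, against 582.9 and 397.7 in primary neurospheres. The astrocyte-enriched miR-26a and miR-29a summed to 841.2 and 1103.1, against 600.2 and 295.3. Of these 2, both were detected on the secondary arrays, but only 1 on each primary array. These sums are not scaled between arrays. The mesenchymal miR-199a-3p moved with title, at 412.2 on the array titled NFIA OE against 95.1 on that titled control in secondary neurospheres, and 283.0 against 55.4 in primary neurospheres. The part of these markers in the results below was not tested.

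All 5 members were detected on all 4 arrays. Levels are log2 of the spot intensity, averaged over probes and relative to each array's 75th percentile of commonly detected probes, and the standard error (SE) of a level over its 8 to 20 spots was 0.010 to 0.043. That error is technical and leaves out the differences between cultures. miR-30a stood at -0.86 and -0.79 on the secondary arrays titled NFIA OE and control, against -0.49 and -0.65 on the primary arrays titled NFIA OE and control. Both secondary values were below both primary ones, within a range of less than 0.4. In the same order miR-30b stood at -0.73 and -0.57, against -0.57 and -0.70, so that the passages overlapped. miR-30c stood at -1.05 and -1.12 in secondary neurospheres, against -0.74 and -0.73 in primary neurospheres, with no overlap between the passages. Overlap between passages, here and below, holds for this scaling. The share of all tested miRNAs without such overlap is not given, so its absence is not read as particular to the members.

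miR-30d stood at -1.30 and -1.32 on the secondary arrays titled NFIA OE and control, against -1.22 and -1.42 on the primary arrays in that order. Its secondary values lay between its primary ones. miR-30e stood at -1.59 and -1.50, against -1.28 and -1.62. Its highest value was on the primary array titled NFIA OE and its lowest on the primary array titled control. On the levels plot, every member sat above the median miRNA of its array, the nearest being miR-30e on the primary array titled control, at -1.62 against a median of -1.64.

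**Figure D1:**
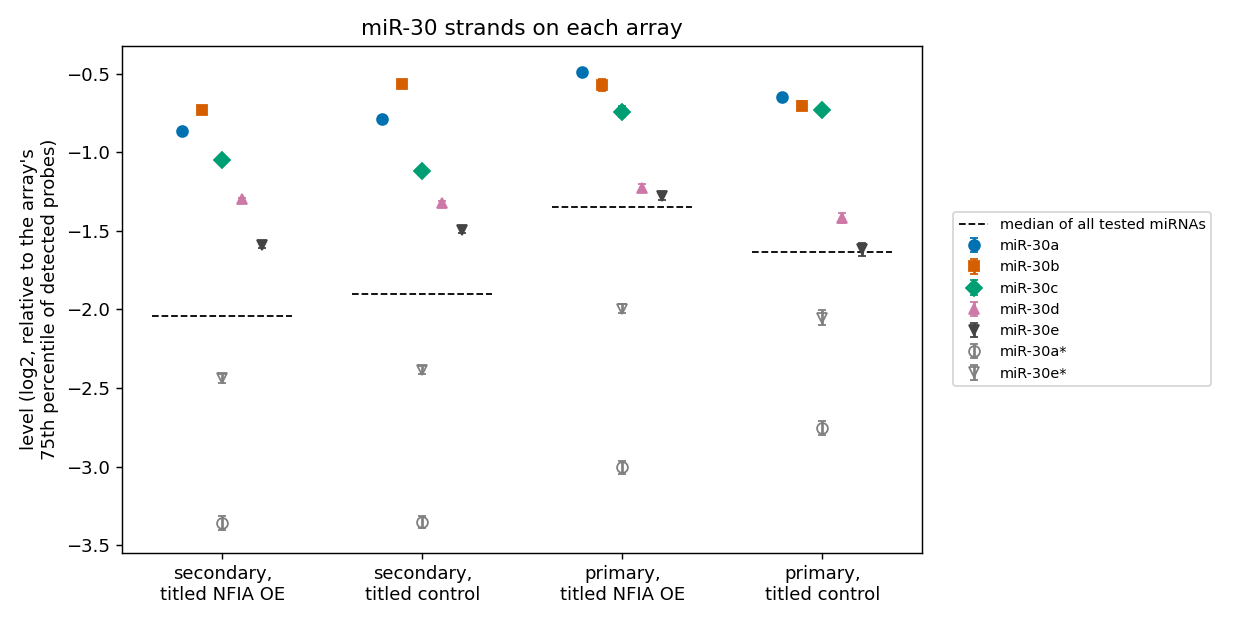
Level of each miR-30 strand on each array (y axis, log2 relative to the array's 75th percentile of commonly detected probes), with bars for the SE over spots and a dashed line for the median of the 153 miRNAs detected on all 4 arrays. The 5 guide strands lie between -0.49 and -1.62, and the passenger strands miR-30a* and miR-30e* lie below the dashed lines.

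Among detected mouse miRNAs, with rank 1 the brightest, the members were in the upper part of the range. Ranks order signals and not molecule numbers, because probes bind with different strength. miR-30a ranked 50 of 207 and 47 of 209 on the secondary arrays titled NFIA OE and control, against 44 of 220 and 48 of 186 on the primary arrays in that order. miR-30b ranked 46 and 44, against 47 and 50, and miR-30c 55 and 59, against 53 and 51. miR-30d ranked 64 on both secondary arrays, against 71 and 72 on the primary arrays, and miR-30e 74 and 68, against 77 and 81. By these ranks miR-30d and miR-30e stood higher on each secondary array than on either primary array, and miR-30c lower. As a share of the detected miRNAs, however, the passages overlapped for both miR-30e and miR-30c. miR-30c then stood 26.6% and 28.2% from the top, against 24.1% and 27.4%. With the scanner's total gene signal in place of the mean over probes, ranks moved by 2 to 33 places, the most for miR-30b, whose dimmer probe lowers that total. The passages then overlapped for miR-30e too, at ranks 64 and 59 against 60 and 65.

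The 5 members together made up 1.87% and 1.74% of the summed total gene signal of all detected miRNAs on the secondary arrays titled NFIA OE and control, against 2.07% and 1.96% on the primary arrays titled NFIA OE and control. This share, chosen after values had been seen, is itself a scaling, by each array's summed signal. Under it the family was a little lower in secondary neurospheres in both pairs, and the passages did not overlap. The authors' processed values divide the same total gene signals by other constants. With them all 5 members were higher in secondary neurospheres, by 0.30 to 0.65 (log2, averaged over both pairs). On each array the 5 brightest miRNAs held 28.0% to 30.4% of the summed total gene signal.

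Secondary neurospheres were set against primary ones to follow miRNA levels along the culture, and passage and days in culture cannot be told apart. No miR-30 member was called (0 of 5 by limma, Benjamini-Hochberg adjusted p under 0.05 over 153 miRNAs, 0 of 5 at an unadjusted p under 0.05), whereas 45.8% of all 153 were called, 20 higher and 50 lower. That background itself depended on the processing. With normexp 87 of 153 were called, and with the percentile over all probes 30. Without scaling 21 were called, and with median centring 0 (44 at an unadjusted p under 0.05). The spread that limma estimated, and the degrees of freedom behind it, changed too. The total degrees of freedom were 153 with the main scaling and normexp, 9.8 with the all-probe percentile and 4.1 with median centring. Without scaling the pooled residual SD was 0.56, against 0.29 with the main scaling. The log2 differences, secondary minus primary with n = 2 arrays per passage, were -0.35 for miR-30c, -0.26 for miR-30a, -0.09 for miR-30e, -0.01 for miR-30b and 0.01 for miR-30d (SE 0.29 each, limma adjusted p = 0.356 to 0.974). As fold changes they ran from 0.787 for miR-30c to 1.01 for miR-30d. The 95% intervals were -0.93 to 0.24 for miR-30c and -0.57 to 0.59 for miR-30d. Both arrays of a passage were sorted fractions of the same mixed culture. The SE, intervals, p-values and calls by passage therefore leave out differences between cultures. No member's interval reached 2-fold in either direction under this scaling, and each left room for a change of about that of the median miRNA.

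That median miRNA stood at -0.39, so the family, with a median of -0.09, lay 0.30 above it. With quantile normalization, 3 of the 5 members were above the median miRNA, and the family's median lay 0.16 above it. Relative to the median, the differences were 0.40 for miR-30d, 0.38 for miR-30b, 0.30 for miR-30e, 0.13 for miR-30a and 0.04 for miR-30c. None (0 of 5) was called on that basis either by limma, where 34.6% of the 153 were called, and the lowest adjusted p was 0.316. Over all tested miRNAs, 39 had a larger difference than any member and 79 a smaller one. The sign of the members' differences depended on the scaling between arrays, and no direction is given for them. With the authors' processed values all 5 were above 0, from 0.30 for miR-30c to 0.65 for miR-30d, and without scaling from 0.61 to 0.96 for the same members. No member was called under any of 13 settings, including those with few or no calls at all, and the lowest adjusted p was 0.0747, with the authors' processed values.

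**Figure D2:**
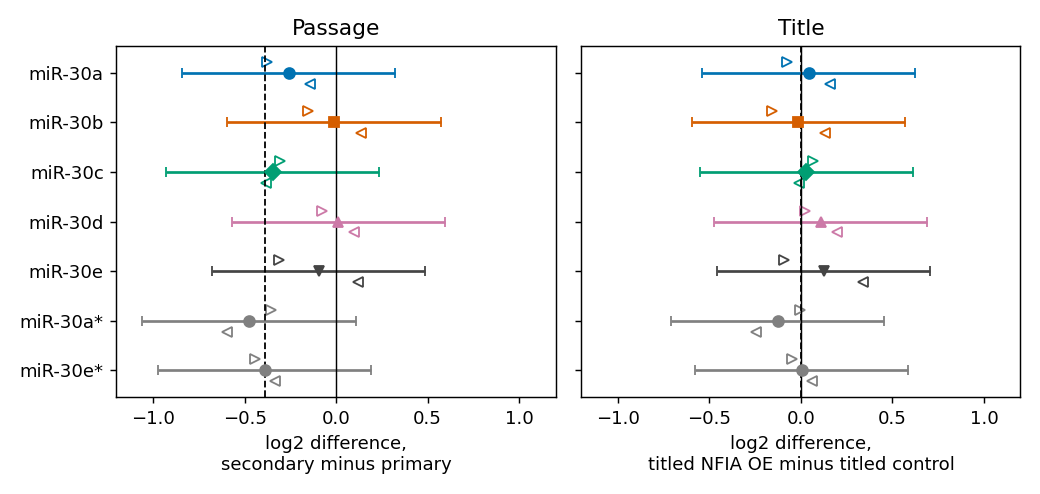
Log2 difference of each strand by passage (left, secondary minus primary) and by title (right, titled NFIA OE minus titled control). Filled symbols with bars are the limma estimate and its 95% interval. Open triangles are single pairs of arrays (pointing right for the pair titled NFIA OE or the secondary pair, left for the pair titled control or the primary pair), and the dashed line is the median of all 153 tested miRNAs. Every bar crosses 0.

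Taken pair by pair, the family was more alike in the cells titled NFIA OE than in those titled control. In the pair titled NFIA OE all 5 differences were below 0, from -0.38 for miR-30a to -0.07 for miR-30d. In the pair titled control they ran from -0.38 for miR-30c to 0.13 for miR-30b, with miR-30e at 0.12 and miR-30d at 0.10. The median of all 153 miRNAs was -0.40 in the pair titled NFIA OE and -0.41 in that titled control, below every member in both. No member was 2-fold apart in either pair (0 of 5 each), against 21.6% of the 153 miRNAs in the pair titled NFIA OE and 37.3% in the pair titled control. A single pair has no replicate, and the difference between the pairs was not tested.

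Ratios between members on 1 array do not depend on a scaling factor for that array. In the fit miR-30c had the lowest passage difference of the family and miR-30d the highest, 0.36 apart. Among the settings that do more than shift all miRNAs by the same amount, this gap was smallest with normexp (0.20) and largest with quantile normalization (0.50). In single pairs the order differed: miR-30a was lowest in the pair titled NFIA OE, and miR-30b highest in the pair titled control. The log2 ratio of miR-30d to miR-30c was -0.25 and -0.21 on the secondary arrays titled NFIA OE and control, against -0.48 and -0.69 on the primary arrays in that order. It was thus higher at passage 1 by 0.23 in the pair titled NFIA OE and by 0.48 in the pair titled control. The ratio of miR-30b to miR-30c was 0.32 and 0.55 in secondary neurospheres, against 0.17 and 0.03 in primary neurospheres, and also did not overlap between passages. Its sign rests on the probes, since miR-30b had 1 bright probe and miR-30c the mean of a bright and a dim one. By total gene signal miR-30b was below miR-30c on every array, at 164 and 218 against 341 and 392 in secondary neurospheres. In primary neurospheres it was at 128 and 76 against 294 and 198. The ratio of miR-30e to miR-30a, which differ by 1 base, moved less, at -0.72 and -0.71 against -0.79 and -0.97. It did not overlap between passages either.

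miR-30b and miR-30d, whose genes are neighbours, had the 2 highest differences in the fit, and their mean lay 0.23 above that of miR-30a, miR-30c and miR-30e. In the pair titled control miR-30e (0.12) was above miR-30d (0.10), and with quantile normalization miR-30e was above miR-30b. With probes detected on at least 1 array, and with no filter, miR-30e (-0.09) was also above miR-30b (-0.16). Both settings take in the dimmer probe of miR-30b, and the gap of 0.23 was then 0.16. These ratios and gaps were picked out after the values were seen and carry no test. In single pairs the changes in ratio between passages ran from 0.07 (miR-30e to miR-30a) to 0.52 (miR-30b to miR-30c). The SE of 0.29 belongs to the fitted passage difference of a single miRNA, and the fit gives none for a ratio.

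**Figure D3:**
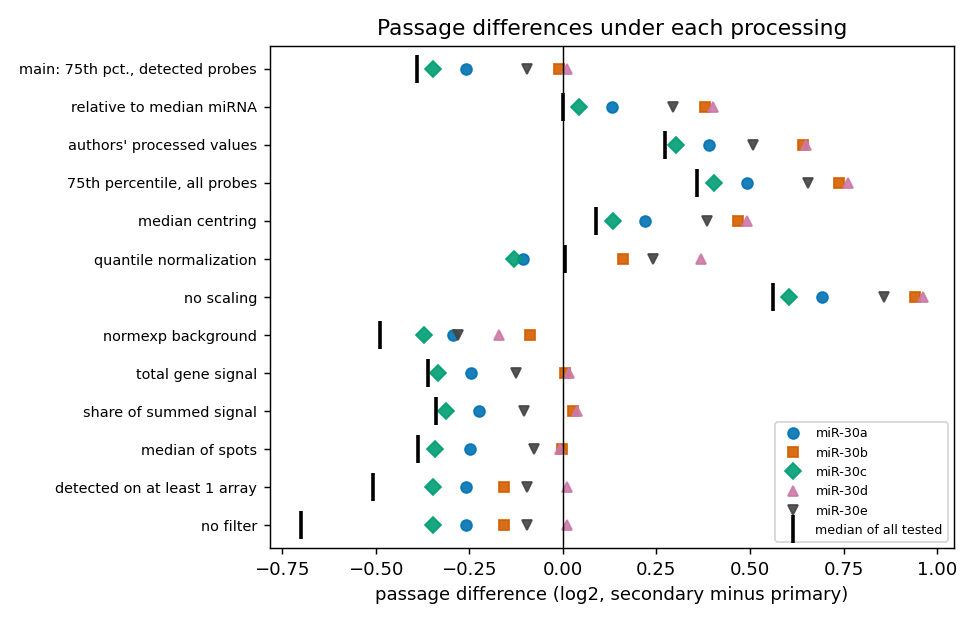
Passage difference (x axis, log2, secondary minus primary) of the 5 members under the main processing and 12 alternatives (rows), with a black bar for the median of all miRNAs tested in that row. The symbols move together across 0 with the scaling. Rows that differ by a shift common to all miRNAs keep the spacing of the symbols by construction.

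Probes of the same member gave similar passage differences at unlike levels, as with 87, 224 and 427 intensity units for miR-30a on the secondary array titled NFIA OE. By title the probes of miR-30a gave 0.13, 0.0001 and -0.0075, and those of miR-30e 0.21 and 0.038, with the dimmest probe first. Of 11 probes for the family, 10 were detected on all 4 arrays. The 3 probes of miR-30a gave passage differences of -0.41, -0.36 and -0.35 in the pair titled NFIA OE and -0.12, -0.18 and -0.13 in the pair titled control. The pairs of probes for miR-30c and for miR-30d differed by less than 0.1 in either pair of arrays. miR-30e was the least uniform, with 0.21 and 0.03 in the pair titled control. miR-30b rested on 1 probe, since its dimmer probe was detected on the secondary arrays alone.

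**Figure D4:**
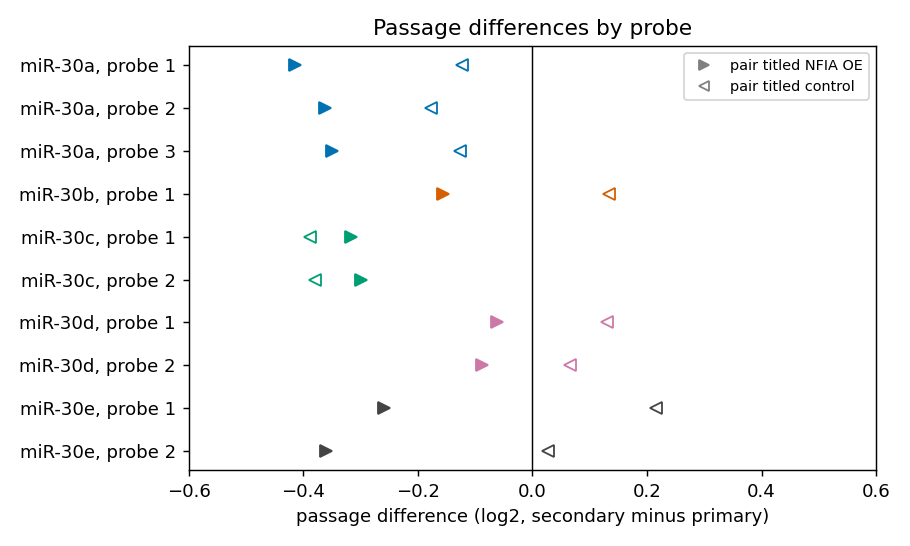
Passage difference of each of the 10 probes detected on all 4 arrays (x axis, log2, secondary minus primary), with filled triangles for the pair titled NFIA OE and open triangles for the pair titled control. All probes of miR-30c lie left of -0.29 in both pairs, and those of miR-30d lie near 0.

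The arrays of each passage were also compared by title, for the effect of NFIA overexpression. The miR-30 family showed no call (0 of 5 by limma, and 0 of 5 at an unadjusted p under 0.05), beside 2.61% of the 153 miRNAs, 2 higher and 2 lower. The differences, titled NFIA OE minus titled control with n = 2 arrays per title, were 0.12 for miR-30e, 0.11 for miR-30d, 0.04 for miR-30a, 0.03 for miR-30c and -0.02 for miR-30b (SE 0.29 each, limma adjusted p = 0.919 to 0.972). The widest interval bounds were -0.60 for miR-30b and 0.71 for miR-30e, which is a fold of 1.63 for miR-30e. The members' median was 0.04 and that of all 153 miRNAs was -0.00. Within a passage the 2 sorted fractions shared 1 mixed culture, so these values do not describe separate cultures.

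In the secondary pair the title differences ran from -0.16 for miR-30b to 0.07 for miR-30c, and in the primary pair from -0.01 for miR-30c to 0.34 for miR-30e. No member was 2-fold apart (0 of 5 in each pair), against 2.61% of the 153 miRNAs in the secondary pair and 9.15% in the primary pair. 4 of the 5 members had opposite signs in the 2 pairs, as had 43.1% of all 153. All these values were within 0.35 of 0.

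Of the passenger strands, 5 were on the array. The probes for miR-30b*, miR-30c-1* and miR-30c-2* stayed at background (detected on 0 of 4 arrays), at -3.53 to 7.56 intensity units, where the lowest detected probes stood at 16.6 to 21.9. miR-30a* and miR-30e* were detected on all 4. They carry the same seed in capitals, which is not that of the guide strands, and differ by the substitution G18A.
miR-30a*: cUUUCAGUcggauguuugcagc
miR-30e*: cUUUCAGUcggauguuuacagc

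miR-30a* stood at -3.36 and -3.35 on the secondary arrays titled NFIA OE and control, against -3.00 and -2.76 on the primary arrays in that order, and the passages did not overlap. miR-30e* stood at -2.44 and -2.39 in secondary neurospheres, against -1.99 and -2.05 in primary neurospheres, again without overlap. On the primary array titled control the dimmer probe of miR-30a* had 20.05 units, where the lowest detected probe stood at 17.7. In the pair titled control it gave a passage difference of -0.68, against -0.51 for the other probe. miR-30e* rested on 1 probe, since its dimmer probe was not detected on that primary array. The passage differences of miR-30a* and miR-30e* were -0.48 and -0.39 (SE 0.29, limma adjusted p = 0.180 and 0.288), close to the median miRNA and not called. Each lay below its guide strand, at -0.26 for miR-30a and -0.09 for miR-30e, gaps that are close to the SE of a single difference or smaller and were not tested. By title they differed by -0.13 and 0.00 (limma adjusted p = 0.920 and 0.994).

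miR-384-5p, a miRNA of the nervous system with the miR-30 seed, was close to background. Its brighter probe had 18.7 and 24.3 intensity units on the secondary arrays titled NFIA OE and control, against 16.1 and 10.6 on the primary arrays in that order. It was detected only on the secondary array titled control, where 70% of the probe's spots passed the scanner's background test, and no fold is given for it.

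Across the 4 arrays, the pattern nearest to the mean of the members belonged to miR-26b. Likeness was the root mean square difference between profiles after each miRNA's own mean was removed. It was 0.03 for miR-26b, 0.05 for miR-1904, 0.08 for miR-466a-3p, 0.08 for miR-125a-5p and 0.08 for miR-33. miR-26b stood at -0.14 and -0.11 on the secondary arrays titled NFIA OE and control, against 0.15 and 0.01 on the primary arrays. The members themselves were at 0.06 for miR-30a to 0.13 for miR-30c, and the median of the 146 other miRNAs was 0.37. With 4 arrays this is a description, and a small value mainly marks a flat profile.

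Other lists gave a scale for these values. The let-7 family, whose mature forms accumulate as stem cells differentiate, had 6 of 7 tested members called higher in secondary neurospheres, with a median of 1.74. The miR-26 and miR-29 families, taken for their enrichment in astrocytes, had 0 of 4 tested members called by passage, beside the miR-30 median of -0.09. Their median was 0.20, with miR-29c at 0.44 as the largest of those 4. Of the 5 on the array, all were detected on the secondary arrays and 4 on each primary array, so 1 was not tested. The 7 epithelial miRNAs (miR-200a, miR-200b, miR-200c, miR-141, miR-429, miR-205 and miR-203), which like miR-30 are known to restrain the epithelial-mesenchymal transition, were undetected throughout (0 of 7). By title 0 members of these lists were called, with medians of 0.28 for let-7 and 0.10 for miR-26 and miR-29, beside 0.04 for miR-30. Differences between the lists were not tested.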

How the data were processed

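Mature miRNAs were measured on 4 one-colour (Cy3) Agilent arrays, 1 per group, without replicates. The deposited scanner files hold linear spot intensity; per the file headers it was detrended and background-subtracted by Feature Extraction 10.5.1.1, without scaling across arrays. The authors' processed table gives 1 linear intensity a miRNA: the total gene signal over a constant of 34.1, 20.3, 31.0 and 33.7 (primary titled NFIA OE and control, then secondary titled NFIA OE and control). The headers' 75th percentile of total signal was 34.1, 20.0, 31.0 and 32.1, but how the authors set the constants is not stated in the files or labels.

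Control spots and those with an outlier flag were dropped (saturated spots: 0), the rest averaged per probe, and detection of a probe required the scanner's well-above-background flag on 50% of spots or more. Intensities were divided by the array's 75th percentile among the 252 probes with detection on every array (261, 167, 369 and 443 units in the above order), put on the log2 scale and averaged over a miRNA's commonly detected probes. limma 3.58.1 (R 4.3.3) fitted title and passage as additive terms over 153 miRNAs, with 1 residual degree of freedom each. Its prior was infinite, so every difference has the pooled residual SD of 0.29 as its SE. The residual also holds any interaction. Precision is limited by the number of arrays, and a p-value reflects the spread of these 4 alone.

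Members and lists were chosen with earlier results of these data known. Named miRNAs were the members, their passenger strands, any other miRNA with their seed, the 5 nearest profiles and the largest difference in each list. Sequences are RefSeq's (GRCm38.p6), matched by miRNA name.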

Additional observations from a re-analysis of the deposited data

Results flagged for a closer look

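Title differences (titled NFIA OE minus titled control) of 4 members had opposite signs in the secondary and the primary pair of arrays, or passage differences had opposite signs in the pairs titled NFIA OE and control for 3 members. With 1 array per group none of these differences between pairs was tested. The title difference in secondary neurospheres minus that in primary neurospheres was -0.43 for miR-30e, -0.29 for miR-30b, -0.23 for miR-30a and 0.076 for miR-30c. The passage difference in the pair titled NFIA OE minus that in the pair titled control was by construction the same -0.43 for miR-30e and -0.29 for miR-30b, and was -0.17 for miR-30d. The median of the same quantity over all 153 tested miRNAs was -0.01, and 66 of 153 had opposite title signs in the 2 passages. The share of the 153 with opposite passage signs is not given, so the 3 members cannot be set against it.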

How the results depend on the processing

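The count of members called by passage and by title was 0 under every alternative, beside 0 (median centring) to 87 (normexp) of 153 miRNAs by passage and 0 to 5 by title in the settings that tested 153, so that 0 of 5 says little where few were called. The members had lowest limma adjusted p of 0.0747 by passage and 0.707 by title. Up to 2 members had an unadjusted p under 0.05 by passage (from the authors' table or the all-probe percentile) and 0 by title. Signs of the small differences did not hold. By passage, the differences of miR-30a, miR-30b, miR-30c and miR-30e (-0.26, -0.01, -0.35 and -0.09) became 0.49, 0.74, 0.40 and 0.66 when the percentile was taken over all probes, 0.22, 0.47, 0.13 and 0.39 when arrays were centred on their median, 0.69, 0.94, 0.61 and 0.86 without scaling, 0.39, 0.64, 0.30 and 0.51 from the processed values of the authors, and 0.13, 0.38, 0.044 and 0.30 relative to the median miRNA. The members' median, -0.09, was 0.66, 0.39, 0.86, 0.51 and 0.30 in the same settings. With quantile normalization miR-30b and miR-30e turned to 0.16 and 0.24, miR-30d turned to -0.17 with normexp and -0.0065 with the median of spots, and miR-30b to 0.0066 with the total gene signal and 0.0284 as a share of the summed signal (added after seeing the data). The scaling shifts all miRNAs of an array equally, except for quantile normalization.

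By title, miR-30a and miR-30c turned to -0.0686 and -0.0805 under the all-probe percentile, -0.0312 and -0.0431 when centred on the median, -0.12 and -0.13 from the authors' table, -0.0101 and -0.0152 with normexp, and -0.0602 and -0.0707 with the total gene signal. miR-30d turned to -0.0023 under the all-probe percentile and -0.0252 from the authors' table, miR-30e to -0.0545 from that table, and miR-30b to 0.17 without scaling and 0.0526 as a share of the summed signal. The other 49 passage and 60 title values of single members kept their sign and stayed uncalled, or were single pairs within 0.29 of the main value. Ranks moved by up to 33 places with the total gene signal or the authors' values and up to 23 with the brightest probe. The fit already takes each passage's pair and each title's pair together, and left 0 members called without the other term too. Leaving out an array leaves no residual, so single pairs stand in for it. The members' probes in the main fit passed the scanner's background test on 100% of spots. The dimmest was a miR-30e probe at 27.8 units on the primary array titled control, where the lowest detected probe stood at 17.7. The dimmer probe of miR-30b, left out of the main fit, stood at 23.9 and 34.5 units on the secondary arrays titled NFIA OE and control. It was not detected in primary neurospheres.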
